A study of Homo sapiens with 12 samples.

Results

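The mRNAs of 50 ribosome biogenesis factors, proteins that transcribe, cut, modify and fold ribosomal RNA (rRNA) and assemble the ribosomal subunits, were followed in a polysome profiling experiment on H1299 cells, an established line from a human lung cancer of the non-small cell type. The members were taken by gene symbol, and all 50 were found among the 16172 genes of the expression table and passed the filter on low values (12-library mean of 1 TPM or more), which 10605 genes passed. EIF3G, a subunit of the translation initiation factor eIF3, was knocked down in siEIF3G cells with an equal mix of 2 siRNAs, whose effects cannot be separated, while siCtrl cells received a control siRNA. Cells were lysed 72 h after transfection; 10% of each lysate was kept as input RNA, and the polysomal fraction of the rest was collected from a 10% to 50% sucrose gradient. There were 4 groups with 3 libraries each: siEIF3G polysomal, siCtrl polysomal, siEIF3G input and siCtrl input RNA. The labels do not say whether the libraries of a group came from separate cultures, so the p-values reflect only how these libraries vary, which may be technical.

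Ribosomes are made in the nucleolus. RNA polymerase I transcribes a long precursor, on which a large complex called the small subunit processome forms, and small nucleolar ribonucleoproteins (snoRNPs) guide the modification of its bases and sugars. Box C/D snoRNPs place methyl groups and box H/ACA snoRNPs make pseudouridine. The precursors of both subunits are then trimmed, released and exported separately, and the last steps take place in the cytoplasm. The pathway is very active in growing tumour cells, and many of its genes are known targets of the transcription factor MYC.

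The members were grouped by role into 15 factors of the small subunit processome, 8 factors of late small subunit assembly, 16 of large subunit assembly, 7 core proteins of snoRNPs, and 4 proteins of the nucleolar hub and RNA polymerase I. The unit of every level is TPM (transcripts per 1000000), which scales each gene by its length and each library to the same sum. A TPM value is a share of the library. A change in all mRNAs alike would not show, and fewer cells and less RNA per cell cannot be told apart.

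The knockdown was checked first. EIF3G averaged 115 ± 39.9 TPM in siEIF3G polysomal RNA, against 1800 ± 118 TPM in siCtrl polysomal RNA, and 64.3 ± 19.0 TPM in siEIF3G input RNA, against 1043 ± 147 TPM in siCtrl input RNA (SD, n = 3 each). Its log2 fold change was -4.02 in polysomal RNA (SE 0.29, limma adjusted p = 3.76e-05) and -4.03 in input RNA (SE 0.29, adjusted p = 3.71e-05). The siRNAs against it, which define the knockdown, were as follows.
siEIF3G-4: gaacaaactcaagggccagaa
siEIF3G-5: gaggtcatcaacggaaacata
Read numbers are unknown, and 13787 to 14659 genes were above 0 in a library. MTRNR2L2, a nuclear copy of mitochondrial rRNA sequence chosen after its values were seen, was at 5.41 to 13.1 TPM in the 6 polysomal libraries and 1258 to 2735 TPM in the 6 input libraries. Of the markers fixed for the cell line, KRT8, KRT18, VIM and AXL were well expressed, while EPCAM, CDH1, NKX2-1 and KRT19 were at or near 0. Of 11 markers of other cell types, 7 were in the table. Their summed level was 82.8 to 114 TPM in siEIF3G polysomal, 59.9 to 133 TPM in siCtrl polysomal, 71.7 to 110.0 TPM in siEIF3G input and 70.9 to 95.9 TPM in siCtrl input RNA. Nearly all of it was CD68, and their part in the results was not tested.

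Among the 12 libraries, 3 stood apart. The libraries siEIF3G polysomal 3, siEIF3G input 2 and siCtrl input 1 were nearer to the other fraction than to their own group, and 1 axis held 78.0% of the variance within groups. The members moved along with this. Of the 50, 46 had their lowest input value in siEIF3G input 2 or siCtrl input 1, and 38 had their highest siEIF3G polysomal value in siEIF3G polysomal 3. The share of all tested genes that did so was not counted. The library medians over all tested genes, given below, leaned the same way, but the members moved further. Their median minus that of all tested genes was 2.38 in siEIF3G polysomal 3, against 1.48 and 1.50 in siEIF3G polysomal 1 and 2. In input RNA it was 1.15 in siEIF3G input 2, against 1.75 and 2.15 in siEIF3G input 1 and 3. For siCtrl input 1 it was 1.11, against 1.59 and 1.62 in siCtrl input 2 and 3. In polysomal RNA the median log2(TPM + 1) over all tested genes also differed with the knockdown. It was 3.01, 3.03 and 3.40 in the siEIF3G polysomal libraries, against 2.79, 2.83 and 2.37 in the siCtrl polysomal libraries. In input RNA these medians overlapped, with 3.87, 3.09 and 3.99 in siEIF3G input libraries, against 2.78, 3.96 and 4.29 in siCtrl input libraries. Fold changes are therefore also given relative to the median of all tested genes.

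**Figure D1:**
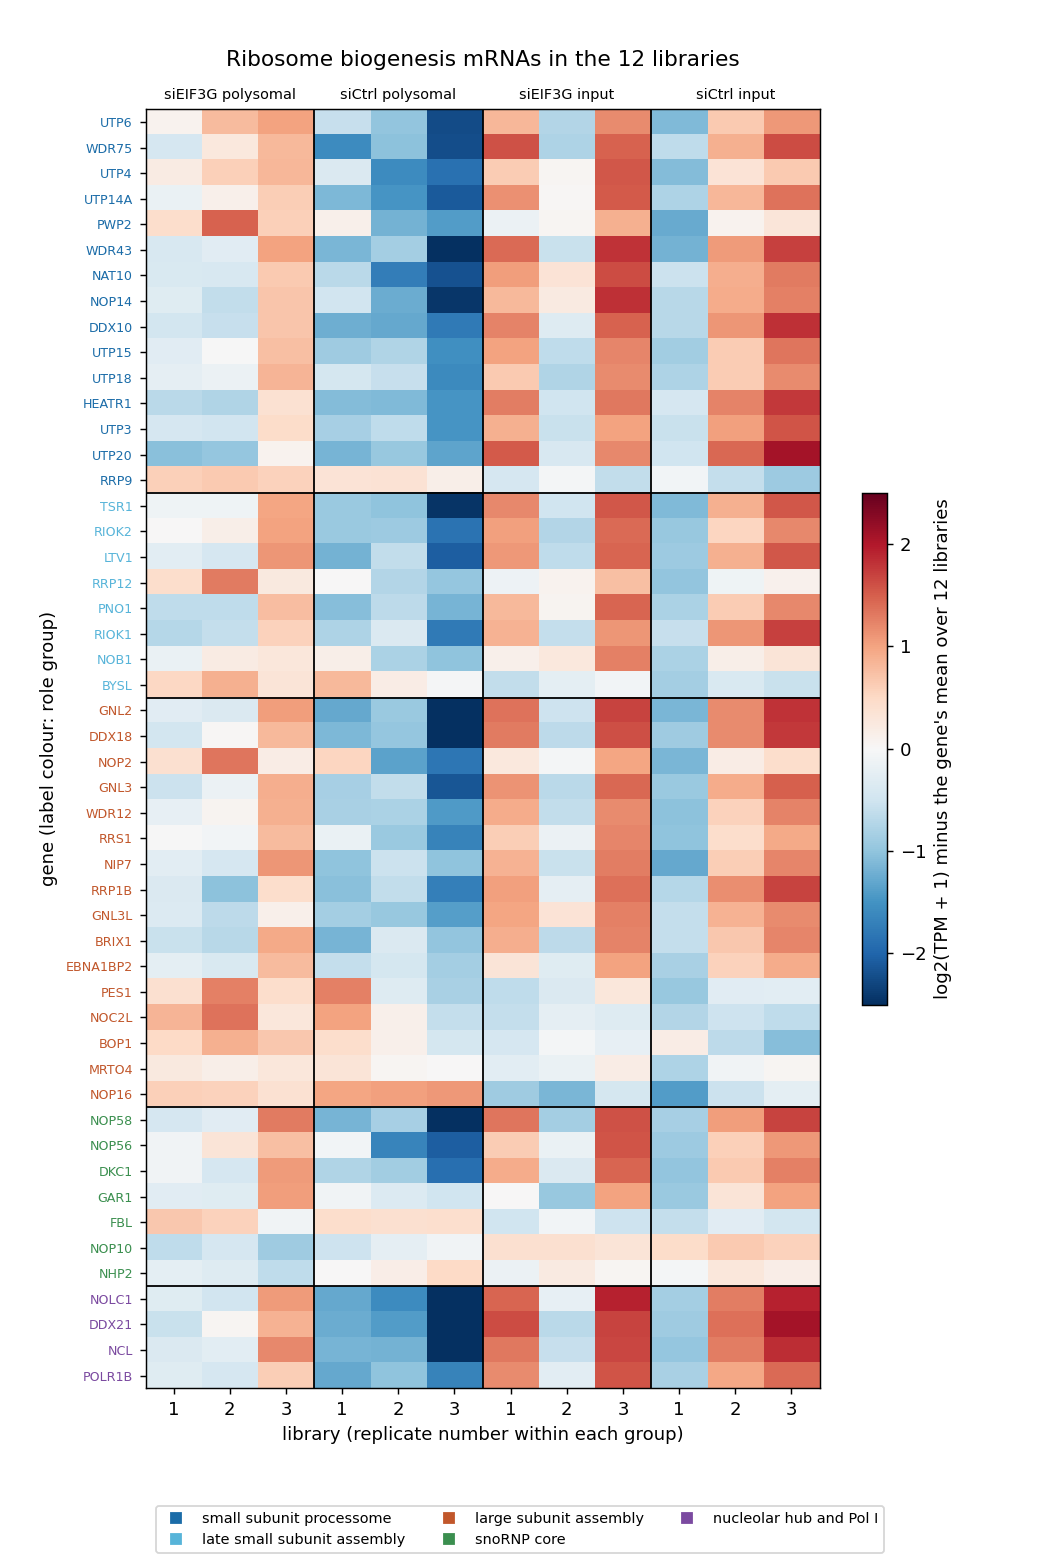
Each row is one of the 50 genes and each column one of the 12 libraries; colour gives log2(TPM + 1) minus the gene's mean over the 12 libraries, and horizontal lines separate the role groups. Most rows are pale in the siEIF3G polysomal libraries and blue in the siCtrl polysomal libraries, and siEIF3G input 2 and siCtrl input 1 are bluer than the other input libraries.

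Levels differed several-fold between the role groups. The median member of the snoRNP core had a group mean of 127 TPM in siEIF3G polysomal, 49.0 TPM in siCtrl polysomal, 179 TPM in siEIF3G input and 137 TPM in siCtrl input RNA. For the processome these medians were 10.8 TPM in siEIF3G polysomal, 4.40 TPM in siCtrl polysomal, 19.5 TPM in siEIF3G input and 18.6 TPM in siCtrl input RNA. FBL (fibrillarin), the methyltransferase of box C/D snoRNPs, was the most abundant member, with a mean of 1448 TPM over the 12 libraries. In the other role groups the highest means were those of BOP1 (714.6 TPM), a scaffold of large subunit assembly, RRP9 (223 TPM), a protein of the U3 snoRNP, NCL (188 TPM) and BYSL (82.0 TPM). Added up, the 50 members held 6363, 7007 and 6455 TPM in siEIF3G polysomal libraries, against 6105, 5409 and 4959 TPM in siCtrl polysomal libraries. The sum was 5440.0, 4948 and 6803 TPM in siEIF3G input libraries, against 4078, 5777 and 6360.4 TPM in siCtrl input libraries. The polysomal groups did not overlap and the input groups did, and in every library the members held under 1% of all transcripts. The lowest means within the groups were those of UTP20 (2.97 TPM), GNL3L (3.98 TPM), POLR1B (5.91 TPM), RIOK2 (6.49 TPM) and GAR1 (30.7 TPM).

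In polysomal RNA, nearly all members were higher in siEIF3G cells than in siCtrl cells, but no single one passed the test. The log2 fold change was above 0 for 46 of 50 members, with a median of 1.21, where the median of all tested genes was 0.33 and 72.7% of them were above 0. Relative to all genes the members' median was thus 0.88. No member was called (0 of 50, lowest adjusted p = 0.65), against a background of 0.0189% of all tested genes called in either direction. At an unadjusted p under 0.05, 19 members were higher in siEIF3G cells (4.2% of all tested genes) and 1 was lower (2.49%). For 33 members, or 66%, all 3 siEIF3G polysomal libraries lay above all 3 siCtrl polysomal libraries, against 21.6% of all tested genes, and for 2 members all lay below, against 7.61%.

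These counts moved with the scaling. After rescaling by size factors, which brought the median of all genes to -0.03, the median relative to all genes was 0.78, 42 members were above 0, and 23 members did not overlap (46%, against 10.1% of all genes). After quantile normalization the count was 26 (52%, against 11% of all genes). With each polysomal library left out in turn it lay between 33 and 42 members, against 22.3% to 42.2% of all genes. No member was called under any of these. Library by library, the members' median minus that of all tested genes was 1.48, 1.50 and 2.38 in siEIF3G polysomal RNA, against 1.09, 0.88 and 0.62 in siCtrl polysomal RNA. The groups did not overlap, and siEIF3G polysomal 3, which stood apart, was the highest; without it the median fold change was 0.90, or 0.70 relative to all genes.

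**Figure D2:**
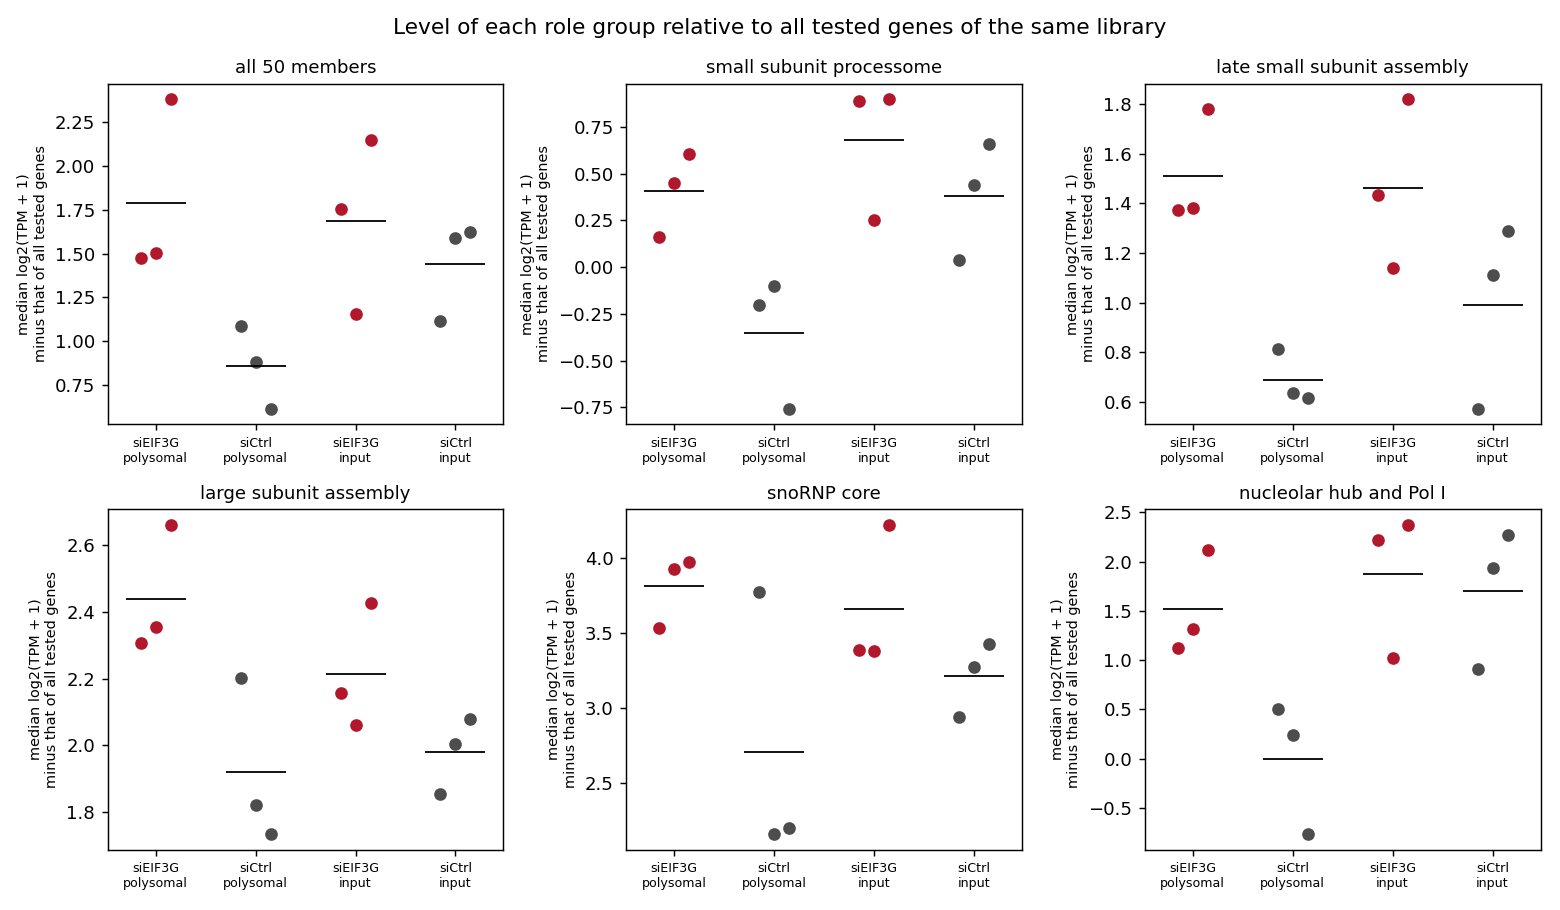
Points are libraries and bars are means of 3 libraries; the y axis gives the median log2(TPM + 1) of the named genes minus that of all tested genes of the same library. For all 50 members the siEIF3G polysomal libraries lie between 1.48 and 2.38 and the siCtrl polysomal libraries between 0.62 and 1.09, while the input groups overlap.

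The 4 proteins of the nucleolar hub and RNA polymerase I had the highest group median, 1.95, or 1.62 relative to all genes. NOLC1, a chaperone that binds snoRNPs, had 20.5, 18.1 and 54.4 TPM in siEIF3G polysomal libraries, against 9.89, 7.96 and 2.40 TPM in siCtrl polysomal libraries. The groups did not overlap, and the log2 fold change of 2.03 (SE 0.75, adjusted p = 0.65) was the highest of all members. NCL (nucleolin), an abundant nucleolar RNA-binding protein, had 98.1, 105 and 293 TPM in siEIF3G polysomal libraries, against 55.8, 55.2 and 16.9 TPM in siCtrl polysomal libraries. Library 3 was the farthest from the others in both groups, upwards in siEIF3G and downwards in siCtrl polysomal RNA. DDX21, an RNA helicase of rRNA transcription and processing, had 13.2, 20.6 and 37.0 TPM in siEIF3G polysomal libraries, against 7.81, 6.88 and 1.71 TPM in siCtrl polysomal libraries. POLR1B, a catalytic subunit of RNA polymerase I, had 3.34, 3.01 and 7.14 TPM in siEIF3G polysomal libraries, against 1.19, 1.65 and 0.680 TPM in siCtrl polysomal libraries. Their log2 fold changes were 1.98 for DDX21 (SE 0.80), 1.92 for NCL (SE 0.76) and 1.29 for POLR1B (SE 0.61). All 4 members of the group were without overlap upwards, against 21.6% of all tested genes.

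All 15 factors of the small subunit processome were above 0, against 72.7% of all tested genes. Their median was 1.30, against 0.33 for all genes, and 13 of them were without overlap upwards, against 21.6% of all genes. UTP6, of the UtpB module that binds the precursor, had 15.1, 25.2 and 29.7 TPM in siEIF3G polysomal libraries, against 9.19, 6.69 and 2.23 TPM in siCtrl polysomal libraries, a log2 fold change of 1.89 (SE 0.65). WDR75, of the UtpA module that first meets the nascent precursor, had 5.88, 10.1 and 15.1 TPM in siEIF3G polysomal libraries, against 2.10, 3.51 and 0.970 TPM in siCtrl polysomal libraries. UTP4, of the same module, had 40.1, 53.6 and 62.7 TPM in siEIF3G polysomal libraries, against 27.0, 11.1 and 8.90 TPM in siCtrl polysomal libraries. The lowest siEIF3G library was above the highest siCtrl library for each of the 3. Their means differed by 3.87 times for UTP6, 4.73 times for WDR75 and 3.33 times for UTP4. Among the other processome factors, UTP14A, which activates a helicase of the complex, had a log2 fold change of 1.76 (SE 0.56) and PWP2, of the UtpB module, of 1.65 (SE 0.51). RRP9 had the lowest of the group, 0.33 (SE 0.24), equal to the median of all genes at 2 decimals, and it turned to -0.21 after rescaling by size factors. Its level was 319, 329 and 314 TPM in siEIF3G polysomal libraries, against 265, 268 and 233 TPM in siCtrl polysomal libraries, so the groups did not overlap but stood close. The other processome factors ran from 0.50 (UTP20, SE 0.64) to 1.63 (WDR43, SE 0.78).

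The 8 factors of late small subunit assembly were all above 0 (72.7% of all tested genes), with a median of 1.01. Of them, 5 were without overlap upwards (21.6% of all tested genes). TSR1, a GTPase-like protein that keeps immature subunits from initiating translation, had 18.0, 18.2 and 40.0 TPM in siEIF3G polysomal libraries, against 9.77, 9.23 and 2.78 TPM in siCtrl polysomal libraries (log2 fold change 1.72, SE 0.70). RIOK2, an atypical kinase that binds the late precursor, had 5.04, 5.63 and 11.0 TPM in siEIF3G polysomal libraries, against 2.15, 2.16 and 0.660 TPM in siCtrl polysomal libraries (1.62, SE 0.64). LTV1, an export and assembly factor, had 24.9, 22.3 and 65.8 TPM in siEIF3G polysomal libraries, against 12.6, 19.2 and 6.46 TPM in siCtrl polysomal libraries (1.43, SE 0.69). All 3 had no overlap between groups, and siCtrl polysomal 3 was the lowest library of each. The other late factors ran from 0.65 (NOB1, SE 0.40) to 1.22 (RRP12, SE 0.43). BYSL (bystin) showed the least difference, with 110.0, 142 and 96.0 TPM in siEIF3G polysomal libraries, against 134, 87.4 and 75.1 TPM in siCtrl polysomal libraries. These ranges overlapped, and its log2 fold change of 0.25 (SE 0.28) turned to -0.28 after rescaling by size factors.

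The 16 large subunit factors had a lower median, 0.79, or 0.45 relative to all genes. Without overlap were 9 in the upward direction (21.6% of all tested genes) and NOP16 in the downward one (7.61%). GNL2, a nucleolar GTPase, had 12.3, 11.6 and 32.4 TPM in siEIF3G polysomal libraries, against 5.60, 7.47 and 1.68 TPM in siCtrl polysomal libraries (log2 fold change 1.74, SE 0.77). DDX18, a helicase, had 8.56, 12.4 and 21.8 TPM in siEIF3G polysomal libraries, against 4.97, 5.68 and 1.16 TPM in siCtrl polysomal libraries (1.69, SE 0.74). For NOP2, an rRNA methyltransferase, the groups overlapped, since siCtrl polysomal 1 was high: 78.7, 153 and 67.8 TPM in siEIF3G polysomal libraries, against 87.0, 22.9 and 16.4 TPM in siCtrl polysomal libraries (1.51, SE 0.58). The abundant BOP1, which forms the PeBoW complex with PES1 and WDR12, had 941, 1225 and 1068 TPM in siEIF3G polysomal libraries, against 907, 729.9 and 492 TPM in siCtrl polysomal libraries. Its groups did not overlap, with a log2 fold change of 0.64 (SE 0.31), while WDR12 had 1.25 (SE 0.61) and PES1 0.65 (SE 0.47, overlapping groups). The other large subunit factors with positive values ran from 0.64 (NOC2L, SE 0.36) to 1.27 (GNL3, nucleostemin, SE 0.69), apart from MRTO4. NOP16, a nucleolar factor of the large subunit precursor, went the other way: it had 262, 261 and 228 TPM in siEIF3G polysomal libraries, against 343, 355 and 370.1 TPM in siCtrl polysomal libraries. All siEIF3G libraries were below all siCtrl libraries, and the log2 fold change was -0.51 (SE 0.29, adjusted p = 0.65). MRTO4, a homologue of a ribosomal stalk protein, was next lowest at 0.09 (SE 0.26), or -0.44 after rescaling by size factors.

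The 7 snoRNP core proteins split. The median was 0.46, or 0.12 relative to all genes, and this relative median lay between -0.04 (size factors) and 0.36 (no filter on low values) over the alternatives. In the upper part stood NOP58, NOP56 and DKC1. NOP58, a box C/D protein, had 22.7, 25.1 and 76.5 TPM in siEIF3G polysomal libraries, against 13.2, 16.8 and 4.22 TPM in siCtrl polysomal libraries (log2 fold change 1.73, SE 0.77). NOP56, its partner in box C/D snoRNPs, had 92.2, 123 and 165 TPM in siEIF3G polysomal libraries, against 93.3, 30.8 and 22.8 TPM in siCtrl polysomal libraries (1.58, SE 0.60). DKC1 (dyskerin), the pseudouridine synthase of box H/ACA snoRNPs, had 46.7, 36.9 and 104 TPM in siEIF3G polysomal libraries, against 29.2, 26.6 and 12.6 TPM in siCtrl polysomal libraries (1.36, SE 0.61). NOP58 and DKC1 were without overlap, whereas siCtrl polysomal 1 reached into the siEIF3G range for NOP56. The other H/ACA proteins had lower values than DKC1, and their differences from it were not tested. NHP2 had 499, 471 and 382 TPM in siEIF3G polysomal libraries, against 596, 663 and 838 TPM in siCtrl polysomal libraries. It was the lowest of all members, with a log2 fold change of -0.63 (SE 0.21, unadjusted p = 0.010, adjusted p = 0.65) and no overlap. NOP10 had 297, 345 and 249 TPM in siEIF3G polysomal libraries, against 323, 397 and 436 TPM in siCtrl polysomal libraries, with overlapping groups (-0.38, SE 0.20). GAR1 had a log2 fold change of 0.46 (SE 0.56), or -0.06 after rescaling by size factors, and FBL of -0.03 (SE 0.23). FBL had 2212, 2043 and 1293 TPM in siEIF3G polysomal libraries, against 1876, 1827 and 1831 TPM in siCtrl polysomal libraries, so siEIF3G polysomal 3 was low where most members were high; without it the value was 0.20.

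**Figure D3:**
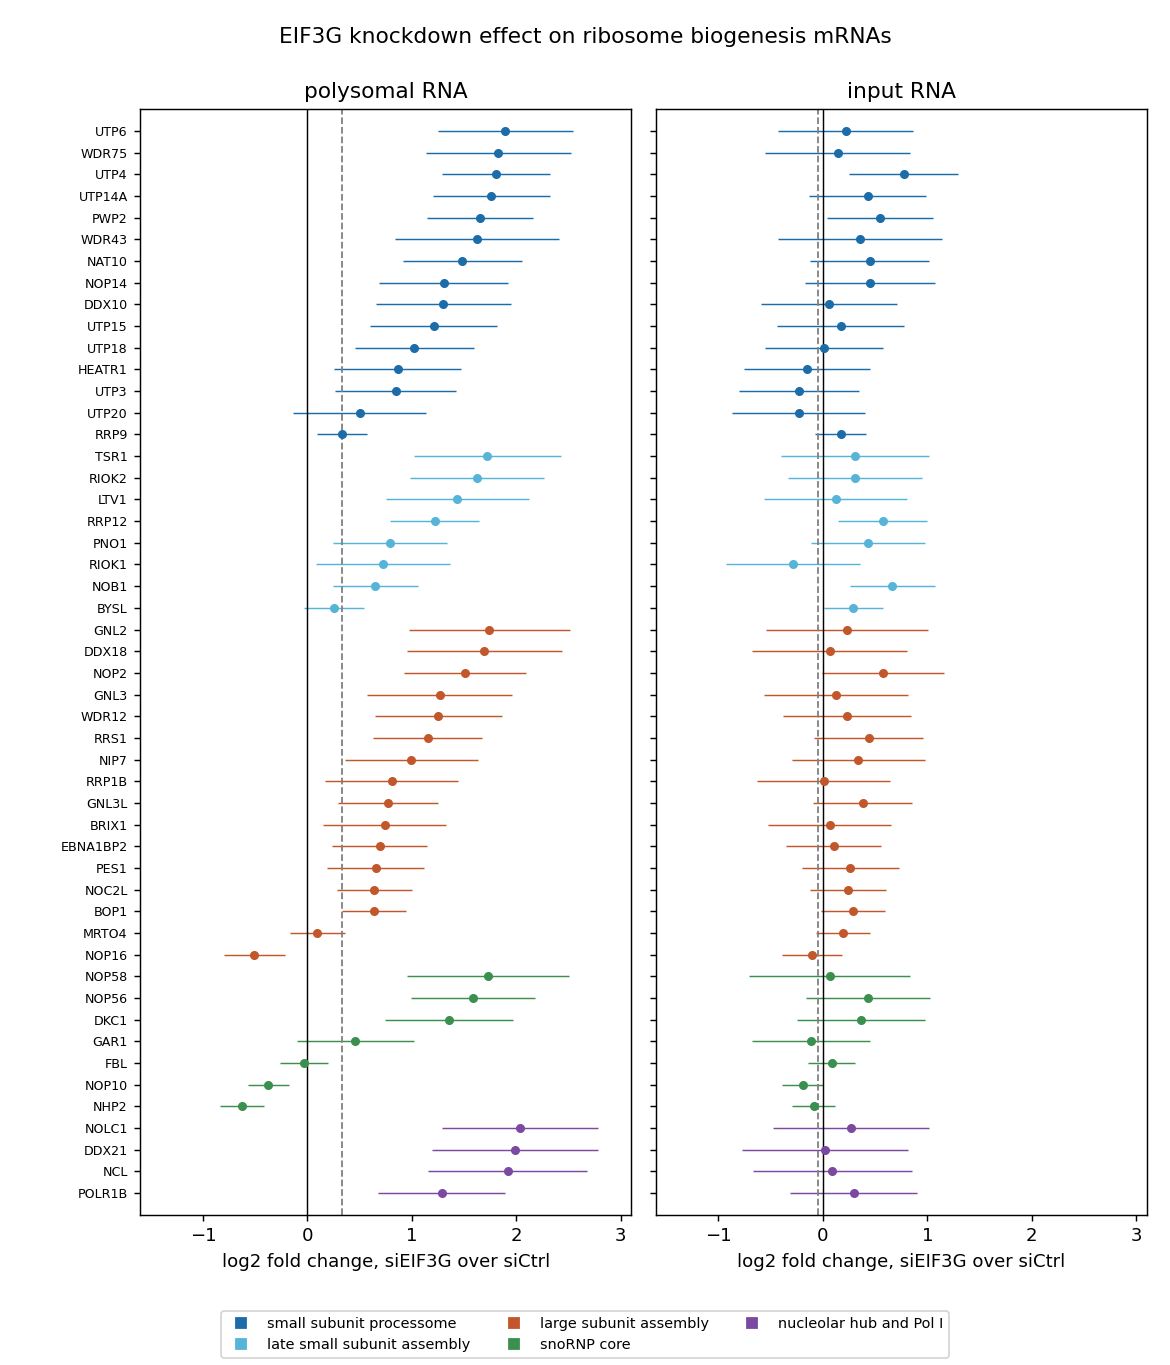
Points are log2 fold changes of siEIF3G over siCtrl with bars of 1 SE, in polysomal RNA (left) and input RNA (right), on the log2(TPM + 1) scale; the dashed line is the median of all tested genes (0.33 in polysomal and -0.05 in input RNA), and colours are the role groups. Most polysomal values lie right of the dashed line, up to 2.03 for NOLC1, with NOP16, NOP10 and NHP2 left of 0.

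Set side by side, small subunit factors of both kinds together had a median log2 fold change in polysomal RNA of 1.30 (23 of 23 above 0, 18 without overlap), large subunit factors one of 0.79 (15 of 16 above 0, 9 without overlap) and snoRNP core proteins one of 0.46 (4 of 7 above 0, 2 without overlap). Over all tested genes 72.7% were above 0 and 21.6% were without overlap upwards. The order of small subunit processome, large subunit and snoRNP core medians was the same after rescaling by size factors (1.12, 0.47 and -0.04 relative to all genes) and after quantile normalization (0.91, 0.67 and 0.20). Late small subunit assembly kept no fixed place: it was below the large subunit group after quantile normalization (0.57 against 0.67) and without siEIF3G polysomal 2 (0.56 against 0.69). Genes of the pathway outside the members, described below, did not have the small subunit above the large: their medians were 0.75 for small and 0.78 for large subunit genes. These are descriptions of the lists, and the difference between them was not tested.

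Among the members, the more abundant ones tended to have the smaller difference in polysomal RNA. Across the 50 members, the mean log2(TPM + 1) of the 6 input libraries and the log2 fold change in polysomal RNA had a Pearson r of -0.44 and a Spearman rho of -0.32, against -0.13 and -0.09 across all 10605 tested genes. The points share the same libraries, the genes are not independent replicates, and a pseudocount of 1 shrinks the change of low genes. The 10 members with the highest input levels, 105 to 1049 TPM, had a median of 0.48, while the 10 lowest, 5.34 to 16.5 TPM, had a median of 1.21 and the other 30 a median of 1.39. Among the 10 most abundant, NCL (1.92) and NOP56 (1.58) were above the median of the 30.

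**Figure D4:**
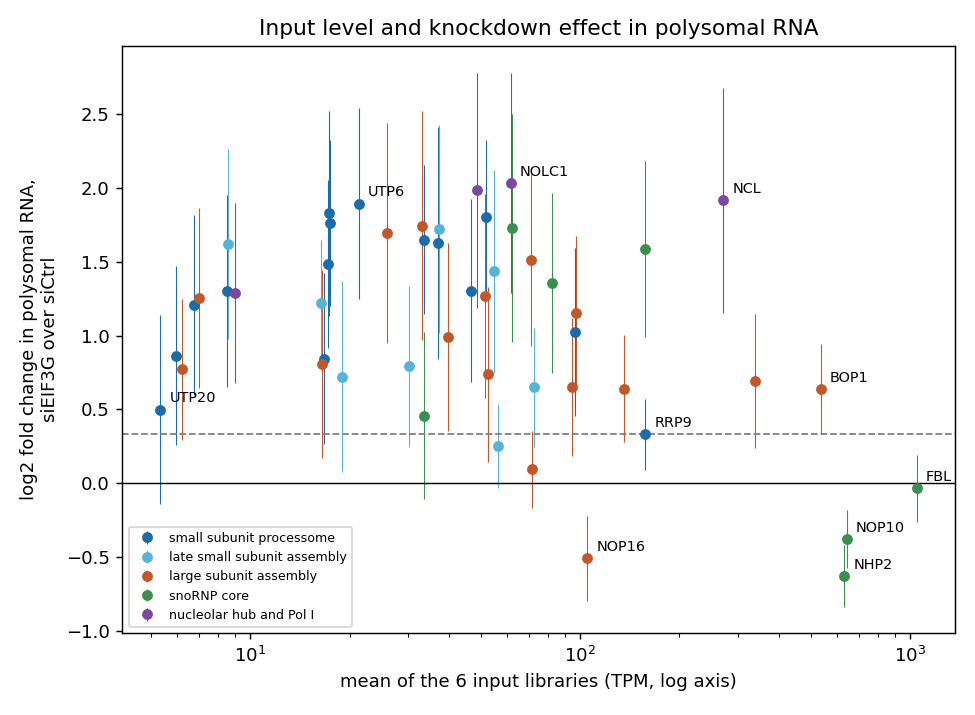
The x axis is the mean TPM of the 6 input libraries on a log axis and the y axis the log2 fold change of siEIF3G over siCtrl in polysomal RNA with bars of 1 SE; the dashed line is the median of all tested genes (0.33). FBL, NOP10 and NHP2 lie at the right near or below 0, and NCL stands above the other abundant genes at 1.92.

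In input RNA, where polysomes were not selected, the members differed little between siEIF3G and siCtrl cells. The median log2 fold change was 0.22, against -0.05 over all tested genes, and 42 members were above 0 (84%, against 43% of all tested genes). The direction rested on single libraries: 11 members were above 0 without siCtrl input 1 (median -0.40) and 17 without siEIF3G input 3 (median -0.10). The limma test called 0 of 50 (background 0.0189%), and 0 of 50 had an unadjusted p under 0.05, against 0.443% of all tested genes in the upward direction. No member was without overlap upwards (background 1.88%) and 1, NOP10, was so downwards (background 1.8%). NOP10 had 611, 609 and 580.3 TPM in siEIF3G input libraries, against 640.2, 730.2 and 690.3 TPM in siCtrl input libraries, a log2 fold change of -0.19 (SE 0.20). The highest values were those of UTP4, 0.77 (SE 0.52), and NOB1, the nuclease that makes the last cut of the small subunit rRNA, 0.67 (SE 0.40). NOB1 had 62.4, 68.7 and 138 TPM in siEIF3G input libraries, against 32.5, 62.7 and 71.3 TPM in siCtrl input libraries, which overlapped. Single libraries set the group's median relative to all genes, which is 0.28 with all of them: leaving out siCtrl input 1 gave -0.01, leaving out siEIF3G input 3 gave 0.08, and leaving out siEIF3G input 2 gave 0.57.

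Whether the knockdown effect differed between the fractions was tested directly, as the effect in polysomal RNA minus that in input RNA. No gene of the table was called (0%), 0 of 50 members had an unadjusted p under 0.05, and 16 genes above and 3 below 0 did so over the whole table. The members' median was 1.00, against 0.38 for all genes, and 43 members (86%) were above 0, as were 73.9% of all genes. DDX21 (1.96, SE 1.12), NCL (1.83, SE 1.08) and NOLC1 (1.77, SE 1.06) had the highest values, and NHP2 (-0.54, SE 0.29) and NOP16 (-0.41, SE 0.41) the lowest. None of these was separated from 0 by the test. The position of each library on the axis that sets 3 libraries apart was also added to the model. In that fit 38 members were called higher and 1 lower in siEIF3G polysomal RNA (33% and 3.38% of all tested genes), and 24 higher in the difference between fractions (18% of all tested genes), but the axis was estimated from the same libraries, which makes these p-values too small.

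The polysomal and input RNA of the same cells were compared next. In siCtrl cells, 4 members (8%) were higher in polysomal than in input RNA, against a background of 7.98%, and 19 (38%) were lower, against 28.9%. The median of the members was -1.48, below that of all genes (-0.96). By role group the median was -2.58 for the nucleolar hub and RNA polymerase I, -1.88 for the processome, -1.40 for late small subunit assembly, -1.04 for large subunit assembly and -0.84 for the snoRNP core. This comparison and the one of siEIF3G with siCtrl polysomal RNA share the siCtrl polysomal libraries, so their values are not independent. NOLC1 fell to 9.89, 7.96 and 2.40 TPM in siCtrl polysomal libraries, against 13.7, 63.5 and 100.2 TPM in siCtrl input libraries (log2 fold change -2.73, SE 0.75, adjusted p = 0.031). DDX21 (-2.72, adjusted p = 0.036) and NCL (-2.44, adjusted p = 0.040) followed, and POLR1B also fell (-1.85, adjusted p = 0.042). No polysomal library of the 4 hub genes reached its lowest input library. Of the processome factors, 8 were called lower. They were WDR75 (-2.23), DDX10 (-2.16), UTP20 (-2.15), NAT10, the rRNA acetyltransferase (-2.08), HEATR1 (-2.07), UTP14A (-2.04), NOP14 (-1.88) and UTP3 (-1.66). Of the late small subunit factors TSR1 was called lower (-1.91), and of the large subunit factors DDX18 (-2.25), GNL2 (-2.22), RRP1B (-1.83) and GNL3L (-1.55). In the snoRNP core NOP58 (-2.17) and NOP10 (-0.84) were called lower. NOP10 was the only one of the 19 above the median of all genes, and stood at 0.33 after rescaling by size factors. Among the 19, the groups of NOP14, TSR1, GNL2 and RRP1B overlapped. Without overlap downwards were 30% of the members, against 28.9% of all genes. Below 0 were 41 members, also ones that were not called, such as WDR43 (-2.05, limma adjusted p = 0.052).

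The 4 members that were higher on polysomes in siCtrl cells differ in role, and their share of 8% is that of all tested genes (7.98%). NOP16 had 343, 355 and 370.1 TPM in siCtrl polysomal libraries, against 65.1, 119.6 and 147 TPM in siCtrl input libraries, a rise of 1.76 on the log2 scale (SE 0.29, adjusted p = 0.0062). BYSL had 134, 87.4 and 75.1 TPM in siCtrl polysomal libraries, against 41.7, 58.3 and 51.5 TPM in siCtrl input libraries (0.93, SE 0.28, adjusted p = 0.039). FBL had 1876, 1827 and 1831 TPM in siCtrl polysomal libraries, against 911, 1133 and 999 TPM in siCtrl input libraries (0.87, SE 0.23, adjusted p = 0.028). In all of them the lowest polysomal library was above the highest input library. RRP9 had 265, 268 and 233 TPM in siCtrl polysomal libraries, against 199, 138 and 111 TPM in siCtrl input libraries (0.81, SE 0.24, adjusted p = 0.037), again without overlap.

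In siEIF3G cells, 2 members were higher in polysomal than in input RNA (background 1.81%) and 1 was lower (background 1.33%). NOP16 rose by 1.35 on the log2 scale (SE 0.29, adjusted p = 0.027), with 262, 261 and 228 TPM in siEIF3G polysomal libraries, against 93.7, 77.8 and 127 TPM in siEIF3G input libraries. RRP9 rose by 0.97 (SE 0.24, adjusted p = 0.049), with 319, 329 and 314 TPM in siEIF3G polysomal libraries, against 157, 203 and 137 TPM in siEIF3G input libraries. NOP10 fell to 297, 345 and 249 TPM in siEIF3G polysomal libraries, against 611, 609 and 580.3 TPM in siEIF3G input libraries (-1.02, SE 0.20, adjusted p = 0.017). NOC2L, a nucleolar factor of large subunit assembly that is also known to bind histones, lay between NOP16 and RRP9 at 1.21. It was not called (SE 0.36, adjusted p = 0.097). The members' median was -0.49 and that of all genes -0.49. Without the 3 libraries that stood apart they were -1.38 and -0.93. The 4 hub genes had values of -0.61 to -0.96, none called.

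The comparisons in siEIF3G and in siCtrl cells share no libraries. Above 0 were 13 members in siEIF3G cells and 9 in siCtrl cells, of which 8 were shared, 61.5% of the 13 and 88.9% of the 9. These were RRP9, BYSL, BOP1, PES1, NOP16, MRTO4, NOC2L and FBL, and 36 members were below 0 in both. Across the 50 members the values had a Pearson r of 0.86 (Spearman rho 0.79), against 0.90 over all tested genes, so this likeness is not particular to the members. For 43 members the value was higher in siEIF3G cells, and that difference is the one tested above between the fractions, which called none.

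The calls between fractions depended on single libraries. Libraries of siEIF3G cells enter the comparison in siCtrl cells, and the reverse, only through the spread estimated over all 12 libraries. Leaving out such a library kept the members' median at -1.48 in siCtrl cells and at -0.49 in siEIF3G cells. In siCtrl cells the 19 lower calls became 0 without any 1 of siCtrl polysomal 1, 2 or 3 or siCtrl input 2 or 3 (0.537% to 1.09% of all tested genes). They became 4 without siEIF3G polysomal 1 (6.52%) and 6 without siEIF3G polysomal 2 (9.41%). They became 36 without siCtrl input 1 (58.8%) and 32 without siEIF3G input 2 (45.5%). With the replicate number as a block they became 9 (13.7% of all tested genes). The 4 higher calls became 1 without any 1 of siCtrl polysomal 1, 2 or 3 or siCtrl input 2 or 3 (0.453% to 1.48%), and 2 without siEIF3G polysomal 1 (3.83%). In siEIF3G cells the 2 higher calls became 0 without siEIF3G polysomal 1 or 2, siEIF3G input 1 or siCtrl polysomal 2 (0.189% to 0.736% of all tested genes). They became 1 without siEIF3G input 2 or 3, siCtrl polysomal 3 or siCtrl input 2 (0.839% to 2.16%), and 4 without siEIF3G polysomal 3 (5.05%). The 1 lower call, NOP10, became 0 without siEIF3G polysomal 1 (0.226%) or siEIF3G input 1 (0.33%). With the 3 libraries that stood apart all left out, siEIF3G cells had 6 higher and 33 lower members (16.4% and 54.8% of all tested genes), and siCtrl cells 5 higher and 37 lower (13.3% and 61.8%), so the calls over the whole table grew with those of the members.

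**Figure D5:**
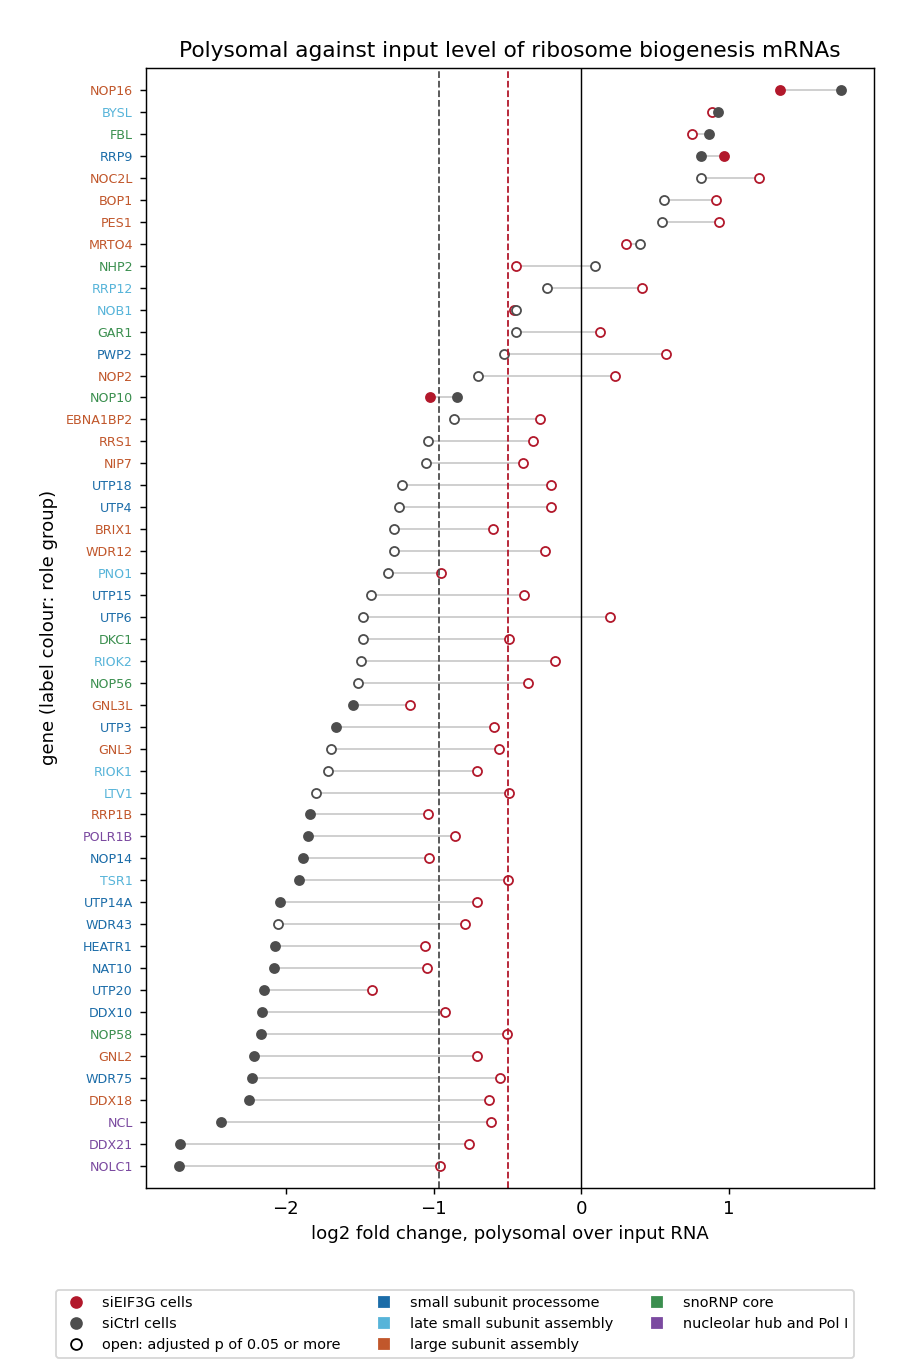
Points are log2 fold changes of polysomal over input RNA on the log2(TPM + 1) scale in siEIF3G cells (red) and siCtrl cells (grey), filled where the adjusted p was under 0.05; dashed lines are the medians of all tested genes (-0.49 in siEIF3G and -0.96 in siCtrl cells). NOP16 has the highest value in both, and NOLC1, DDX21 and NCL, at the bottom in siCtrl cells, lie nearer to 0 in siEIF3G cells.

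Other genes of the pathway that are not members, 116 in all and all tested, showed the same direction to a smaller extent. In polysomal RNA, siEIF3G over siCtrl, 99 of 116 were above 0 (85.3%, against 72.7% of all genes). Their median was 0.74 (0.41 above that of all genes), and 0 were called by limma. At an unadjusted p under 0.05 there were 18 higher (15.5%, against 4.2% of all genes) and 3 lower (2.59%, against 2.49%). Without overlap upwards were 40 (34.5%, against 21.6%). The 43 large subunit genes had a median of 0.78, led by GTPBP4 (1.84), a nucleolar GTPase, and DDX27 (1.65), a helicase. The 32 small subunit genes had a median of 0.75, from WDR3 (1.54) to IMP3 (-0.79), which bridges the U3 snoRNA and the precursor. The 14 genes of RNA polymerase I and its factors were all above 0 with a median of 0.72, and RRN3, the initiation factor of that polymerase, had 1.43. The 10 snoRNP assembly genes (median 0.68) ran from ZNHIT6 (1.54) to PIH1D1 (-0.38), and the 17 of the exosome and rRNA trimming (0.57) from MTREX (1.62), the helicase of the nuclear exosome, to EXOSC5 (-0.58), a subunit of its ring. In input RNA the median of the 116 was 0.12, with 78 above 0 (67.2%, against 43% of all genes) and 0 called or past an unadjusted p of 0.05. Between fractions, 18 of the 116 (15.5%, against 7.98% of all genes) rose on polysomes in siCtrl cells and 36 (31%, against 28.9%) fell. In siEIF3G cells 5 rose (4.31%, against 1.81%), and limma called 0 lower (against 1.33%), with 6 lower at an unadjusted p under 0.05. Those 5 were EXOSC7 (1.50), DDX56 (1.29), IMP3 (1.15), WDR74 (1.11) and PPAN (1.05), and each of them also rose in siCtrl cells.

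Promoters were read for what the members share that the choice of genes did not use. The sequence from 250 bases before to 50 bases after the gene start (RefSeq, GRCh38.p14) was at hand for 43 of the 50 members and 8722 of the tested genes. The E-box CACGTG, which MYC and related factors bind and which reads the same on both strands, was found in 19 of the 43 (44.2%), against 950 of the 8722 (10.9%) and 22% of the other pathway genes. By role it was found in 60% of processome, 42.9% of late small subunit, 41.7% of large subunit and 33.3% of snoRNP core promoters, and in 0% of the 3 hub and RNA polymerase I promoters. The median GC content of these promoters was 64%, against 66% for the tested genes. Of 21 E-boxes in the members, 9 began before the gene start. Windows of 30 bases around the E-box nearest the gene start are shown for 8 members, with the E-box in capitals. In each role group with an E-box, they are the E-box members with the highest and the lowest polysomal over input value in siCtrl cells. PES1 and LTV1 were not called in that comparison.
RRP9, chr3:51941892-51941921, minus strand: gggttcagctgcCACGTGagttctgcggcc
UTP20, chr12:101280083-101280112, plus strand: cttttttccgtcCACGTGacccactcaggc
BYSL, chr6:41921515-41921544, plus strand: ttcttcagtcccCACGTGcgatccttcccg
LTV1, chr6:143843354-143843383, plus strand: gtcctggggctgCACGTGtggtgaggccta
PES1, chr22:30591880-30591909, minus strand: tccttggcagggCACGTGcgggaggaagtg
GNL2, chr1:37595917-37595946, minus strand: gtacgtcgtgcaCACGTGgtccggcgtggt
FBL, chr19:39846356-39846385, minus strand: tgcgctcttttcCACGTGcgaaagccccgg
NOP10, chr15:34343130-34343159, minus strand: gaaattgacgaaCACGTGacgcggtcgggc
Members with and without the motif covered nearly the same range of responses to the knockdown. The 19 members with it had a median log2 fold change in polysomal RNA of 1.02, from -0.38 (NOP10) to 1.81 (UTP4), and the 24 without it one of 1.23, from -0.63 (NHP2) to 1.98 (DDX21). Both kinds occur among the members that were higher on polysomes in siCtrl cells and among those that were lower. A match is a description of letters and does not show that a factor binds there.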

How the data were processed

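RNA sequencing values of 12 libraries of H1299 cells were taken as the authors deposited them, as TPM per gene; per the submitters' processing notes RSEM 1.3.1 and the genome build GRCh38.p13 were used, while aligner, annotation, filters and read numbers were not given in the sources used here. Each library sums to 1000000 TPM, so depth is unknown and no counting interval is given. Values were tested as log2(TPM + 1), which understates the fold change of low genes, on the 10605 genes that averaged 1 TPM or more. A model with 4 group means was fitted to all 12 libraries with limma 3.58.1 in R 4.3.3 (mean-variance trend, 8 residual degrees of freedom), with Benjamini-Hochberg adjustment over all tested genes and a threshold of 0.05. The fit was also run on simulated data. Their noise was independent between genes and smaller than that of these libraries, so that run does not give the error rates here. There were 5 comparisons: siEIF3G against siCtrl in each fraction, the difference between these effects, and polysomal against input RNA in each kind of cell. Groups do not overlap where every library of one lies beyond every library of the other.

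The members and all lists were chosen with earlier results of these data known, so list counts and medians stand beside those of all genes with no test. Genes were named by a rule: members past the threshold; otherwise the 3 highest and the lowest of each role group in knockdown comparisons and the 2 highest and 2 lowest between fractions; the highest and lowest level of each role group; and, of other pathway genes, those past the threshold or the 2 highest and 2 lowest of each list, from which the text takes the outer ones. WDR12 and PES1 (partners of BOP1) and GAR1 in polysomal RNA, and the genes at the ends of ranges of other members, were added after their values were seen. Alternatives were other pseudocounts (0.1 and 5), another filter (none, or a 5 TPM minimum), size factors, quantile normalization, no trend, a fit of just the compared groups, a replicate block, the first axis of the within-group deviations as a covariate, and libraries left out. Promoters are RefSeq sequences of GRCh38.p14, read with Python 3.11.15 and matched by symbol. The check of the other cell types rests on marker lists fixed with the gene lists.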

Additional observations from a re-analysis of the deposited data

How the results depend on the processing

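With siEIF3G against siCtrl, 0 members were called under the alternatives run, except with the first axis as a covariate, which called 38 higher and 1 lower in polysomal RNA (33% and 3.38% of all tested genes) and 24 higher in the difference between fractions (18%). The count of members without overlap in polysomal RNA, whose alternatives were chosen after seeing the data, was 23 with size factors and 26 with quantile normalization, against 33. Reversed log2 fold changes in polysomal RNA were -0.28 for BYSL, -0.44 for MRTO4, -0.21 for RRP9 and -0.06 for GAR1 with size factors, and for FBL 0.00 with quantile normalization and 0.20 without the 3 libraries that stood apart. NOP10, polysomal over input in siCtrl cells, stood at 0.33 with size factors.

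The calls over all tested genes, whose shares are given in brackets, shifted as well. Between fractions, in siCtrl cells, the 4 higher calls became 8 with size factors (26.7%) and 2 with only the groups compared (3.5%). The 19 lower calls became 2 with a pseudocount of 5 (7.88%), 1 with no filter (4.33%) and 11 with size factors (16.2%). They became 11 with quantile normalization (11.7%) and 1 with only the groups compared (2.25%). With the first axis they became 36 (59.9%), and without the libraries that stood apart 37 (61.8%). The median relative to all genes was -1.16 with no filter and -0.77 with a mean of at least 5 TPM, against -0.51. In siEIF3G cells, the 2 higher calls became 1 with a pseudocount of 0.1 (1.82%), no filter (1.24%), size factors (0.17%) or quantile normalization (1.36%). They became 0 without the trend (0.622%) or with only the groups compared (0.245%). With the first axis (11.2%) or without the libraries that stood apart (16.4%) they became 6. The 1 lower call became 0 with size factors (0.273%), without the trend (0.783%) or with only the groups compared (0.396%). It became 20 with the first axis (50%) and 33 without the libraries that stood apart (54.8%).

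With each library left out in turn, higher calls ranged from 1 to 5 and lower calls from 0 to 36 in siCtrl cells. Over all tested genes these shares ranged from 0.453% to 9.62% and from 0.537% to 58.8%. In siEIF3G cells the calls ranged from 0 to 4 higher and 0 to 1 lower (0.189% to 5.05% and 0.226% to 4.36% of all tested genes). The median relative to all genes ranged from 0.62 to 0.97 in polysomal RNA, from -0.01 to 0.57 in input RNA, from 0.32 to 0.80 for the difference between fractions, from -0.73 to -0.31 in siCtrl and from -0.23 to 0.23 in siEIF3G cells between fractions. FBL in polysomal RNA ranged from -0.18 to 0.20. A left-out library that was not part of a comparison changed only its estimate of spread, with its degrees of freedom. The cause of the other changes was not tested.

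Whether replicate numbers pair the samples was checked by the correlation of same-numbered libraries' deviations: 6 of 18 pairs were over 0.1, with a range of -0.69 to 0.71, which is short of the mark set for pairing, every pair over 0.1. Whether a number marks a shared lysate is not given in the labels. With the replicate block, 9 members in place of 19 were called lower on polysomes in siCtrl cells, and no other count of member calls changed. The unknown depth limits low genes most, such as UTP20 at under 2 TPM in all polysomal libraries.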
